A study of Homo sapiens with 12 samples.

Results

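HT1376 is a bladder carcinoma cell line, and the comparison described here is between a line of it in which FOXP3 was knocked out (HT1376 FOXP3 KO) and a control line (HT1376 CT), both grown without interferon gamma (IFNγ). The libraries were chosen by their labels, which gave 3 untreated KO and 3 untreated CT libraries, 6 of the 12 libraries in the series. The KO line was made with Cas9 and guide RNAs to exon 2 of FOXP3 and the CT line with a guide RNA to the luciferase gene. Both were delivered by lentivirus, selected with puromycin and grown from single cells, so that each line is 1 clone and the effect of the knockout cannot be told apart from differences between clones. That both clones descend from HT1376 cells was taken from the study's methods and was not tested, and every difference given here rests on it. RNA was depleted of ribosomal RNA and sequenced, and the remaining 6 libraries of the series, of the same clones under IFNγ, served as separate libraries in which the same genes were read again. The comparison asks how the clones differ at baseline, before any IFNγ is added.

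FOXP3 is a forkhead transcription factor that defines regulatory T cells, where it activates and represses genes together with partner proteins, and it has also been described in carcinoma cells. Urothelial carcinoma cells keep parts of the urothelial programme (keratins, uroplakins, GATA3) and can shift towards squamous or mesenchymal programmes. KRAB zinc finger proteins are a large family of DNA-binding repressors encoded mostly in clusters on chromosome 19, and many of them bind transposable elements.

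Library totals ranged from 10476942 to 39270042 gene counts. FOXP3 itself had 1, 0 and 0 counts in the CT libraries and 3, 0 and 0 in the KO libraries (replicates 11, 12 and 13, the order used throughout). These are at or below the floor of 3 counts per library, 0.0764 to 0.286 CPM (counts scaled to the library total) at these depths, so the RNA gave no check of the knockout and no fold was computed. Epithelial markers were present in both lines, with a summed level of 5126 to 5406 normalized CPM in CT and 4670 to 5506 in KO. Of that list, only UPK3A was at 0 in every library. MALAT1 was the most abundant gene of every library, at 2.39% to 3.11% of counts in CT and 4.7% to 5.12% in KO.

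The lines differed in a large part of the transcriptome. Of 25320 genes tested, 8135 passed an adjusted p of 0.05 (32.1%), 3538 of them higher in KO (14.0%) and 4597 lower (18.2%). The excess of lower genes was not kept with upper-quartile normalization, which called 4236 higher and 4006 lower. Among these 8135 genes, 7993 had no overlap between the 3 KO and the 3 CT libraries, while 46.5% of all genes tested had none. Changes were often large: 609 genes were called higher and 929 lower by more than 4 on the log2 scale. Protein-coding genes were called more often than long noncoding RNAs, at 41.3% of 14670 against 23.7% of 5972, but these classes were not matched for level. Of the 16595 genes reaching 1 CPM in either line, 43.2% were called and 50.4% differed by less than 0.5 on the log2 scale.

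The genes with the largest increases in KO were nearly silent in CT. SIGLEC6, a sialic acid-binding cell surface lectin known from placental trophoblast and mast cells, had 0.767, 0.965 and 0.927 normalized CPM in CT and 544, 1137 and 465 in KO. PRLR, the prolactin receptor, had 0.472, 0 and 0.371 in CT and 329, 330 and 200 in KO. Every KO library stood far above every CT library for both genes, though lack of overlap was a condition for naming them. The log2 fold changes were 9.64 (SE 0.42, adjusted p = 6.8e-08) for SIGLEC6 and 9.77 (SE 0.40, adjusted p = 4.5e-08) for PRLR. FLT1, a receptor for VEGF, had 0.413, 0.161 and 0.212 normalized CPM in CT and 125, 580 and 90 in KO, where replicate 12 was well above the other two. HSD3B1, a steroid hormone synthesis enzyme, rose from 0.0971 ± 0.168 to 67.4 ± 32.8 normalized CPM (SD, n = 3). ADAMTS15, a secreted metalloprotease, rose from 0.385 ± 0.165 to 222 ± 42.4. BOC, a co-receptor of hedgehog signalling, LUM, the collagen-binding proteoglycan lumican, TP53I11, PTPRQ, MCC, GALNT18 and FGD5 completed the 12 genes, with log2 fold changes of 8.65 to 9.98 over all of them.

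**Figure D1:**
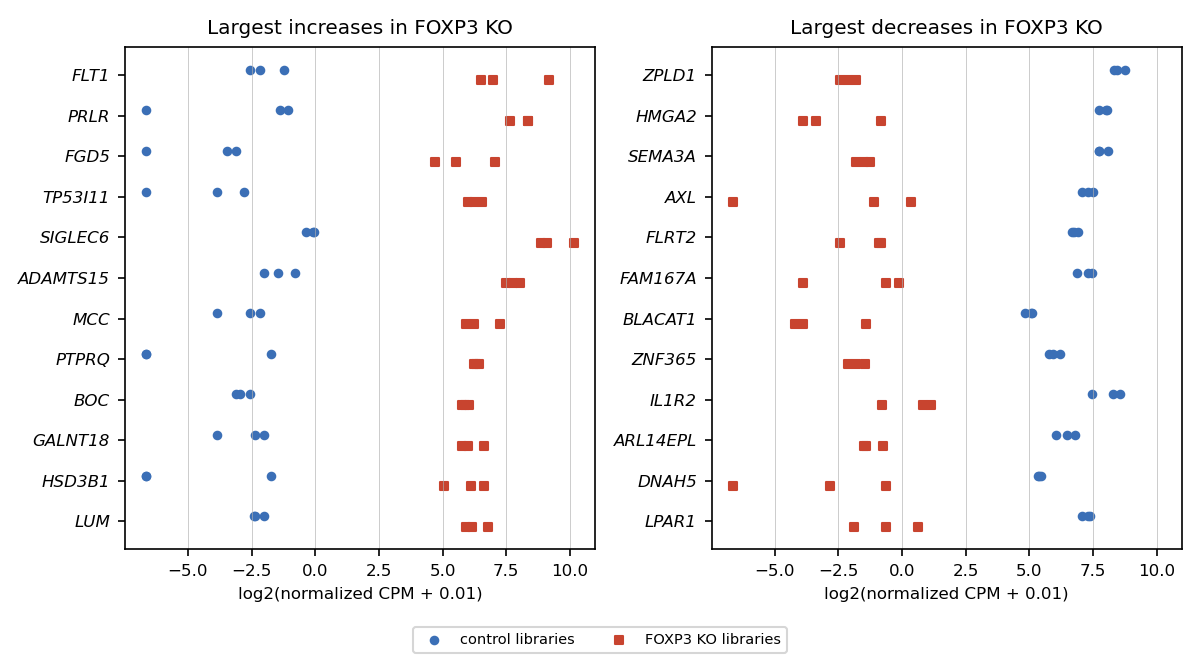
Each point is 1 library, on the log2(normalized CPM + 0.01) scale (horizontal axis), for the 12 genes with the largest increase (left) and the largest decrease (right) that had more than 3 counts in some library of each line. Blue circles are the 3 CT and red squares the 3 KO libraries. The 24 genes were chosen among called genes without overlap between the lines, so the separation of the colours follows from the choice. Log2 fold changes were 8.65 to 9.98 on the left and -10.69 to -7.60 on the right.

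The largest decreases were of similar size. ZPLD1 had 323, 433 and 348 normalized CPM in CT and 0.218, 0.275 and 0.175 in KO (log2 fold change -10.69, SE 0.23, adjusted p = 2.0e-09). HMGA2, an architectural chromatin protein of embryonic and tumour cells, had 212, 267 and 257 in CT and 0.0873, 0.549 and 0.0583 in KO (log2 fold change -10.37, SE 0.35, adjusted p = 1.4e-08). SEMA3A, a secreted guidance factor that signals through neuropilins, had 273, 211 and 215 in CT and 0.349, 0.275 and 0.408 in KO. For all 3 genes every CT library stood far above every KO library, though here too lack of overlap was a condition for naming them. AXL, a receptor tyrosine kinase, had 135, 156 and 182 normalized CPM in CT and 0, 0.458 and 1.28 in KO. IL1R2, the decoy receptor of interleukin 1, had 177, 375 and 314 normalized CPM in CT and 0.567, 2.2 and 1.75 in KO, and LPAR1, a lysophosphatidic acid receptor, fell from 153 ± 18.1 to 0.806 ± 0.644 (SD, n = 3). FLRT2, FAM167A, BLACAT1, ZNF365, ARL14EPL and DNAH5 had log2 fold changes of -8.16 to -7.66.

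Some genes were at or below 3 counts in every library of 1 line. There were 1448 such genes in CT, of which 186 averaged at least 1 and 13 at least 10 normalized CPM in KO. In KO there were 2417, of which 270 averaged at least 1 and 33 at least 10 in CT. ATOH8, a basic helix-loop-helix factor, had 0 counts in CT and 40, 33.7 and 31.3 normalized CPM in KO, at least 800-fold higher when 3 counts over the CT group are taken as the floor. BCHE, butyrylcholinesterase, had 0 counts in CT and averaged 28.0 ± 7.26 in KO, at least 589-fold higher. CAPN6, a calpain-like protein without protease activity, had 3 counts over the CT libraries and 161, 237 and 129 normalized CPM in KO, a pooled ratio of 3729 (95% exact interval 1276 to 18088, counting error only). ALDH1A1, a retinaldehyde dehydrogenase, averaged 66.4 ± 13.0 normalized CPM in KO and TRPA1, an irritant-sensing cation channel, 56.8 ± 4.06, against 0.129 and 0.057 in CT. In the other direction BLK, a kinase of the SRC family, had 69.8, 72.1 and 51.3 normalized CPM in CT and 0 counts in KO, at least 1016-fold lower in KO. CST1, the secreted protease inhibitor cystatin SN, averaged 29.1 ± 15.9 in CT and had 0 counts in KO, at least 525-fold lower. SHISA2 averaged 132 ± 13.1 in CT and had 2 counts over the KO libraries, and DOCK10, a guanine nucleotide exchange factor, 72.9 ± 9.09 with 4 counts in KO.

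Among the abundant genes that rose were several of the extracellular matrix. FN1, fibronectin, had 232, 1168 and 1517 normalized CPM in CT and 2576, 4949 and 2231 in KO (log2 fold change 1.74, SE 0.53, adjusted p = 0.0277), and it no longer passed without KO replicate 12 (adjusted p = 0.0595) or CT replicate 12 (adjusted p = 0.0521). COL12A1, a fibril-associated collagen, had 577, 457 and 355 in CT and 2135, 2182 and 2129 in KO. FBN2, fibrillin 2, rose from 185 ± 81.1 to 1287 ± 319 and the imprinted noncoding RNA H19 from 421 ± 99.6 to 1077 ± 198. RHOBTB3 rose from 56.2 ± 22.2 to 1624 ± 398, and DSP, the desmosomal plaque protein desmoplakin, from 1532 ± 133 to 3210 ± 1581. MACF1, HSPA8, ACTG1, YWHAZ and ANXA2, which serve the cytoskeleton, protein folding, signalling scaffolds and membranes, were each lower in KO by 1.10 to 1.27 on the log2 scale.

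Genes of integrins, laminins and other matrix components moved in opposite directions by subunit. Of 33 tested, 6 were higher and 16 lower, with a median log2 fold change of -0.50 beside -0.02 over all genes tested. LAMA3, an alpha chain of epithelial basement membrane laminin, had 1116, 1523 and 1931 normalized CPM in CT and 22.9, 63 and 68.1 in KO. ITGA2, the collagen-binding alpha 2 integrin, fell from 1459, 1270 and 2074 to 206, 189 and 286. Against these, the basement membrane collagen chains COL4A3 and COL4A4 rose from 0.928 to 71.6 and from 2.73 to 88.5 mean normalized CPM. LAMA3 and ITGA2 thus fell while the 2 collagen IV chains rose. None of them overlapped between the lines, but they were picked among called genes, of which 98.3% had no overlap.

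The mesenchymal list, which holds matrix proteins and regulators of epithelial-mesenchymal transition, split almost evenly, with 13 of 41 tested higher and 15 lower (median log2 fold change -0.21). DCN, the small matrix proteoglycan decorin, had 1.53, 1.05 and 0.477 normalized CPM in CT and 90.1, 95.7 and 138 in KO. COL1A2, a type I collagen chain, had 29.5, 15.1 and 30.7 in CT and 319, 329 and 455 in KO. THBS1, thrombospondin 1, had 937, 655 and 1189 in CT and 14.1, 5.12 and 24.7 in KO, and TNC, tenascin C, averaged 453 in CT and 11.2 in KO. DKK1, a secreted WNT inhibitor, averaged 32.8 in CT and 0.16 in KO. The fibroblast marker list rose in sum from 58.5 to 77.0 normalized CPM in CT to 490 to 742 in KO, with 5 of its 9 genes higher and 2 lower, none of them at 0 in all libraries. COL1A1, its partner chain in type I collagen, went the other way, at 29.0 in CT and 7.92 in KO, as did THY1, a surface glycoprotein, which had 541 counts in CT and 7 in KO. The part of other cell types in these levels was not tested.

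Epithelial junction and polarity genes were mostly lower in KO. Of 38 tested, 22 were lower and 4 higher, at a median log2 fold change of -0.51. CDH1, which encodes E-cadherin, averaged 383 normalized CPM in CT and 244 in KO (n = 3 libraries each, log2 fold change -0.65, SE 0.12, adjusted p = 0.00152). PATJ, a polarity scaffold, fell by 2.46 on the log2 scale from 165 normalized CPM, CLDN4, a tight junction claudin, from 203 to 51.6, and OVOL1, an epithelial transcription factor, from 24.4 to 4.72. PARD3, another polarity scaffold, rose from 18.5 to 62.8 and F11R, a junctional adhesion molecule, from 145 to 253. ZEB1, a repressor of epithelial genes, was low in both lines, at 0.804 ± 0.141 in CT and 0.102 ± 0.091 in KO (adjusted p = 0.0181), and leaving out KO replicate 11, CT replicate 11 or CT replicate 13 gave adjusted p of 0.0547, 0.0593 and 0.0514.

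Basal and squamous genes had 21 lower and 12 higher of 46 tested (median log2 fold change -0.35), and the cornified envelope precursors led the decreases. SPRR2A had 98, 223 and 237 normalized CPM in CT and 0.698, 1.92 and 3.21 in KO. SPRR1B had 289, 290 and 295 in CT and 1.83, 4.03 and 9.51 in KO. SPRR1A averaged 45.2 in CT and 0.877 in KO. SPRR genes are near copies of each other, so how reads were divided among them is uncertain. The suprabasal keratin KRT1 moved the other way, from 2.77, 0.161 and 2.3 in CT to 76.6, 46.6 and 115 in KO, and so did CLCA2 (1.79 to 47.5 mean normalized CPM) and S100A7 (4.52 to 29.1). Luminal urothelial genes had 9 higher and 7 lower of 27 tested (median log2 fold change 0.13). PPARG, a nuclear receptor of luminal differentiation, had 23.4, 18.4 and 18.9 in CT and 45.3, 61.3 and 59 in KO, and GRHL3, a grainyhead factor of terminal differentiation, had 58.9, 28.1 and 76.1 in CT and 3.45, 2.93 and 5.78 in KO. KRT13 fell from 88.6 to 15.2 and TBX3 rose from 10.3 to 29.8.

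Proteases and their inhibitors had 25 lower and 6 higher of 45 tested (median log2 fold change -1.80). Kallikrein-related peptidases, which process the epithelial surface, were among the largest decreases: KLK5 had 290, 333 and 318 normalized CPM in CT and 2.09, 2.2 and 6.13 in KO, KLK6 averaged 63.8 and 2.17, and KLK10 11.1 and 0.178. MMP14, a membrane-bound matrix metalloproteinase, rose from 56.7 to 134. Among CEACAMs and mucins 8 of 14 tested were lower and 2 higher (median log2 fold change -1.94). CEACAM1, an inhibitory adhesion molecule, had 228, 295 and 419 normalized CPM in CT and 0.655, 2.01 and 3.73 in KO, and the large transmembrane mucin MUC16 had 1490, 1309 and 1311 in CT and 216, 161 and 153 in KO. MUC15, another membrane mucin, rose from 9.44, 8.93 and 8.47 to 67.4, 60.4 and 52.6.

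Growth factor ligands and receptors came next. Of 47 EGFR ligands and receptor tyrosine kinases tested, 23 were lower and 9 higher (median log2 fold change -1.23). TGFA, an EGFR ligand, had 328, 261 and 453 normalized CPM in CT and 4.32, 5.31 and 12.6 in KO, and AREG, another, had 796, 465 and 850 in CT and 22.3, 13.7 and 37 in KO. FGFR1 averaged 4.13 in CT and had 2 counts over the KO libraries. ROR1 and DDR2, receptors for WNT5A and for collagen, rose from 4.47 to 47.0 and from 8.69 to 22.8. In the VEGF family and angiogenic list, 11 of 39 tested were higher and 10 lower. VEGFC, a lymphangiogenic ligand, had 25.6, 22.9 and 25.6 in CT and 0.0873, 0 and 0.117 in KO. NRP1, a co-receptor for VEGF and class 3 semaphorins, had 1.06, 4.18 and 7.04 in CT and 0 counts in KO, at least 85.0-fold lower. NRP2, its paralogue, had 1 count over the CT libraries and averaged 8.82 ± 3.07 normalized CPM in KO, a pooled ratio of 585 (95% exact interval 104 to 23146). SEMA6D and SEMA6A, transmembrane semaphorins, averaged 21.2 and 59.4 in KO against 0.0177 and 0.659 in CT. NRP1, VEGFC and SEMA3A were thus at or near the floor in KO, and NRP2 and SEMA6D in CT.

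Developmental pathways were mixed. TGF-beta ligands, receptors and targets had 10 higher and 16 lower of 34 tested (median log2 fold change -0.28). ID1 and ID2, inhibitors of basic helix-loop-helix factors that BMP signalling induces, rose from 23.5 to 152 and from 7.91 to 88.1 mean normalized CPM, and SMAD6, an inhibitory SMAD, from 0.659 to 10.5. FST, the activin antagonist follistatin, averaged 11.4 ± 3.43 in CT with 1 count over the KO libraries. TGFBR2, the type II TGF-beta receptor, had 1.24, 6.84 and 15.1 in CT and 0.218, 0 and 0.292 in KO. WNT pathway genes had 8 higher and 12 lower of 35 tested, with WNT6 and WNT5A at 7.67 and 3.47 in KO and 0.124 and 0.0971 in CT. Notch pathway genes had 8 in each direction of 26 tested. The ligand JAG2 rose from 10.5 to 45.5, and the receptors NOTCH2 and NOTCH1 fell from 59.6 to 9.71 and from 144 to 51.8.

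Of forkhead factors other than FOXP3, 6 of 24 tested were higher and 7 lower (median log2 fold change -0.06). FOXN3, a forkhead repressor, had 1.24, 0.724 and 0.397 normalized CPM in CT and 65.8, 85.2 and 70.7 in KO, and FOXO4, a target of AKT signalling, had 6.96, 7 and 8.5 in CT and 167, 106 and 185 in KO. FOXQ1 fell from 7.59 to 0.464 and FOXD1 from 53.8 to 13.3. Regulatory T-cell genes had 3 higher and 4 lower of 22 tested, a share of 31.8% beside 32.1% over all genes tested. Those called included TGFB1 (4.09 to 17.4 mean normalized CPM) and NT5E, the ecto-enzyme CD73 (374 to 98.3). Without CT replicate 13, 2 of the list were lower. HOX genes had 3 higher and 5 lower of 16 tested, but leaving out any 1 library left 0 to 3 lower. Words of the forkhead core (ATAAACA, its variant ACAAACA, likewise GTAAACA and also GCAAACA, on either strand) were in 15.2% of all 27305 promoters of 300 bases in the RefSeq table (GRCh38.p14), and in 10.3% of the 12312 that matched a tested gene by symbol. They were in 13.7% of the promoters of genes higher in KO and in 10.1% of those lower. A word is a description of these 300 bases and says nothing of binding.

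In each immune list more genes were called lower than higher in KO at baseline. Interferon-stimulated genes had 24 lower and 7 higher of 51 tested (median log2 fold change -0.43). MX1, an antiviral GTPase, had 26.8, 63.1 and 27.6 normalized CPM in CT and 8.77, 9.24 and 3.38 in KO, and HERC5, HERC6 and EPSTI1 fell from 26.8 to 4.06, from 21.1 to 3.93 and from 30.4 to 5.71 mean normalized CPM. GBP2, a guanylate-binding protein induced by interferon, moved the other way, with 0.767, 1.21 and 1.11 in CT and 97.7, 78.9 and 78.5 in KO (log2 fold change 6.35, SE 0.19, adjusted p = 8.9e-09). GBP1 had 4.54, 5.87 and 7.36 in CT and 52.5, 46.5 and 39.7 in KO, and TRIM22 0.826, 2.25 and 0.477 in CT and 17.3, 12.4 and 7.06 in KO. IFITM1 rose from 11.9 ± 3.89 to 38.9 ± 3.01. Interferon receptors and JAK-STAT genes had 13 lower and 4 higher of 30 tested (median log2 fold change -0.28), or 7 lower without KO replicate 11. JAK1 was higher in KO (249 to 361) and JAK2 lower (22.4 to 10.7), as was IFNGR1, a subunit of the IFNγ receptor (59.3 to 40.1).

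Antigen presentation genes had 14 lower and 2 higher of 29 tested (median log2 fold change -0.51), or 9 lower without CT replicate 13. HLA-B had 165, 519 and 334 normalized CPM in CT and 64.8, 110 and 54 in KO, and NLRC5, the regulator of MHC class I genes, fell from 9.04 to 1.32. Among checkpoint ligands 13 of 29 tested were lower and 5 higher (median log2 fold change -0.87). TNFSF18, the ligand of GITR, had 11, 7.56 and 14.4 in CT and 0.48, 0.0915 and 0.175 in KO, and PDCD1LG2, which encodes PD-L2, fell from 12.6 ± 3.48 to 2.09 ± 0.883. CD200, an inhibitory ligand, rose from 0.826, 3.14 and 2.22 to 41.2, 22.2 and 40.5. HLA genes share sequence with each other and with pseudogenes, and how reads were divided among them is uncertain. ICAM1 averaged 10.4 ± 4.52 in CT and 5.76 ± 0.827 in KO, with overlapping libraries (adjusted p = 0.0679, or 0.0111 with the replicate number as a block and 0.00509 without CT replicate 11).

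Cytokines and chemokines had 11 lower and 6 higher of 37 tested (median log2 fold change -1.07), or 7 lower without CT replicate 13. LIF, an interleukin 6 family cytokine, had 35.4, 35.5 and 58.1 normalized CPM in CT and 0.175, 0.0915 and 0.934 in KO, and IL24 averaged 128 ± 72.0 in CT and 4.07 ± 2.33 in KO. TNFSF10, the death ligand TRAIL, had 3.42, 20.3 and 2.86 in CT and 120, 358 and 79.1 in KO, with replicate 12 highest in both lines. NF-kB subunits and feedback genes had 15 lower and 2 higher of 26 tested (median log2 fold change -0.60). TNFAIP3, the NF-kB feedback inhibitor A20, had 434, 445 and 584 in CT and 27.6, 65.1 and 42.9 in KO. PTGS2, cyclooxygenase 2, had 879, 517 and 1111 in CT and 73.4, 82.2 and 133 in KO. SOD2 and NFKBIA were the 2 that rose, from 60.9 to 127 and from 70.4 to 100. Haematopoietic markers summed to 5.25 to 6.19 normalized CPM in CT and 118 to 250 in KO, and in KO this was almost wholly CSF1R, the receptor for macrophage colony-stimulating factor, at 130, 238 and 102, with LCP1 at 13.7. CD2, MS4A1, CD68, NKG7 and SPI1 were at 0 in every library.

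**Figure D2:**
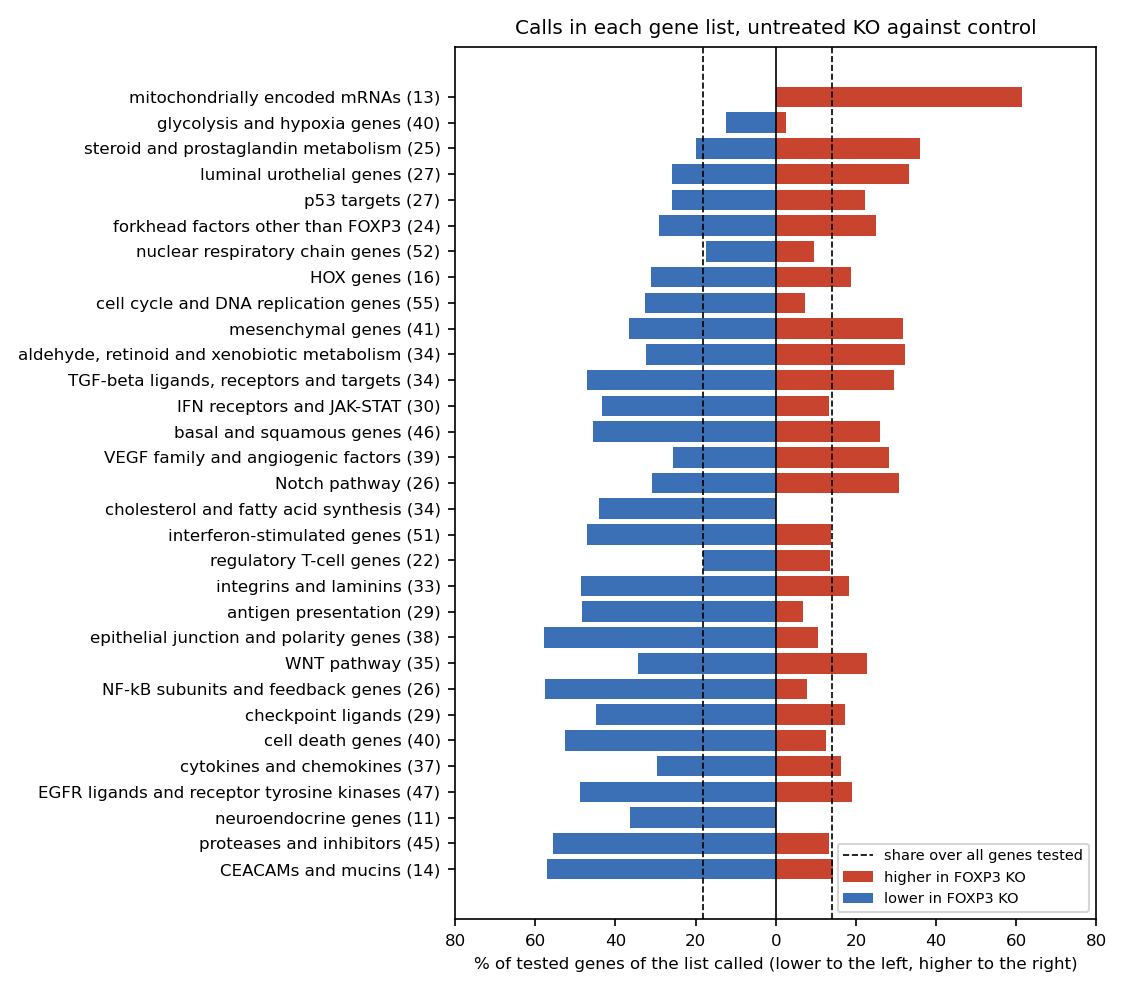
Bars give the percentage of the tested genes of each list that were called higher (red, to the right) or lower (blue, to the left) in KO, with the number tested in parentheses and lists ordered by median log2 fold change. Dashed lines mark the shares over all genes tested, 14.0% higher and 18.2% lower. These include many genes of low level. Of the 16595 genes with a mean of at least 1 CPM in a line, 43.2% were called (3139 higher and 4036 lower). CEACAMs and mucins (8 of 14 lower) and proteases (25 of 45 lower) lie at the bottom and the mitochondrially encoded mRNAs (8 of 13 higher) at the top.

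Cell death genes had 21 lower and 5 higher of 40 tested (median log2 fold change -0.99). NLRP1, an inflammasome sensor, had 74.6, 75.7 and 89.5 normalized CPM in CT and 4.58, 2.1 and 3.15 in KO. MLKL, the effector of necroptosis, averaged 15.1 in CT and 0.884 in KO, and BID, a proapoptotic BCL2 family member, 9.64 and 0.77. GSDME, a pore-forming gasdermin, had 0.118, 0.483 and 0.477 in CT and 46.6, 36.8 and 50 in KO. Cell cycle and DNA replication genes had 18 lower and 4 higher of 55 tested (median log2 fold change -0.18), and 10 to 11 lower without KO replicate 11, CT replicate 11 or CT replicate 13. Their share called was 40.0%, beside 32.1% over all genes tested and 43.2% of those reaching 1 CPM in a line. The G1 regulators led the decreases, with CCND1 (cyclin D1) at 615, 422 and 680 in CT and 56.8, 48.6 and 69.7 in KO, and CDK6 at 223 and 52.7. Of p53 targets 6 were higher and 7 lower of 27 tested, among them ZMAT3 (48.7 to 296) and CDKN1A (122 to 42.7).

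Metabolic lists differed in their share of calls, which was lowest for glycolysis and hypoxia genes and highest, at 64.7%, for aldehyde, retinoid and xenobiotic genes. Glycolysis and hypoxia genes had 1 higher and 5 lower of 40 tested, and 13 higher and 9 lower with the replicate number as a block. For the same list, 8 were higher without CT replicate 12 and 12 lower without KO replicate 12. EPAS1, the hypoxia-inducible factor HIF-2 alpha, had 236, 204 and 194 normalized CPM in CT and 1029, 776 and 932 in KO. Nuclear respiratory chain genes had 5 higher and 9 lower of 52 tested, and 3 to 5 lower without KO replicate 11 or 12 or any 1 CT replicate. Of the 13 mitochondrially encoded mRNAs, 8 were higher and none lower (median log2 fold change 0.42), with 3 higher without KO replicate 11 and 4 without CT replicate 13, and mitochondrial counts made up 3.1% to 3.63% of CT and 4.38% to 5.11% of KO libraries. Cholesterol and fatty acid synthesis genes had 15 lower and 0 higher of 34 tested, or 8 lower without KO replicate 11 or 13, with FDFT1, which makes squalene, at 209 in CT and 76.4 in KO. In steroid and prostaglandin metabolism, where 9 of 25 tested were higher and 5 lower (3 lower without KO replicate 11 or CT replicate 13), HPGD, which degrades prostaglandins, rose from 0.34 to 26.2, and ESR1, oestrogen receptor alpha, had 27.1, 15.7 and 21 in CT and 0.175, 0.641 and 0.642 in KO. Aldehyde, retinoid and xenobiotic genes had 11 in each direction of 34 tested, or 7 higher without CT replicate 11. Neuroendocrine genes had 4 lower and 0 higher of 11 tested, a share of 36.4%. There were 2 higher with the replicate block and 1 to 2 lower without KO replicate 13, CT replicate 12 or CT replicate 13. CHGA and ENO2 overlapped between the lines (adjusted p = 0.238 and 0.936). Without KO replicate 12 ENO2 was called lower (log2 fold change -1.27, adjusted p = 0.018).

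Differences also followed chromosomal position (GRCh38). Gene by gene values were summarised over 15499 genes of at least 1 mean normalized CPM, of which 18.5% were higher and 24.4% lower in KO, with a median log2 fold change of -0.03. On chromosome 12, 43.3% of 816 genes were higher and 9.93% lower (median 0.41), and on chromosome 14, 39.2% of 487 were higher and 8.42% lower (median 0.40). On chromosome 8, 49.1% of 540 genes were lower and 8.89% higher (median -0.52), and on chromosome 15, 44.2% of 493 were lower and 8.92% higher (median -0.44). Chromosomes 4, 22 and 3 had medians of -0.26, -0.25 and 0.23. DNA copy number was not measured in these libraries, and these medians are a description with no test.

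Within chromosome 8 the shift was largest from 10 to 40 Mb, where the medians of 3 bins of 10 Mb were -1.38, -1.17 and -1.25. Of 65 genes from 20 to 30 Mb, 45 were lower and 3 higher. Abundant genes there included DOCK5, which fell from 592 to 223 mean normalized CPM, and DUSP4, a MAP kinase phosphatase, with 453, 438 and 552 in CT and 29.4, 27.9 and 48.3 in KO. ADAM9 fell from 423, 433 and 467 to 159, 207 and 184. TACC1, from the same arm, did not pass the test, at 114 and 143. On chromosome 12 the largest medians were at 10 to 40 Mb, at 0.83, 0.93 and 0.87. PPFIBP1, which lies there, had a log2 fold change of 1.43, while GPRC5A and EMP1, from the 10 to 20 Mb bin, fell from 628 to 254 and from 229 to 46.8.

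**Figure D3:**
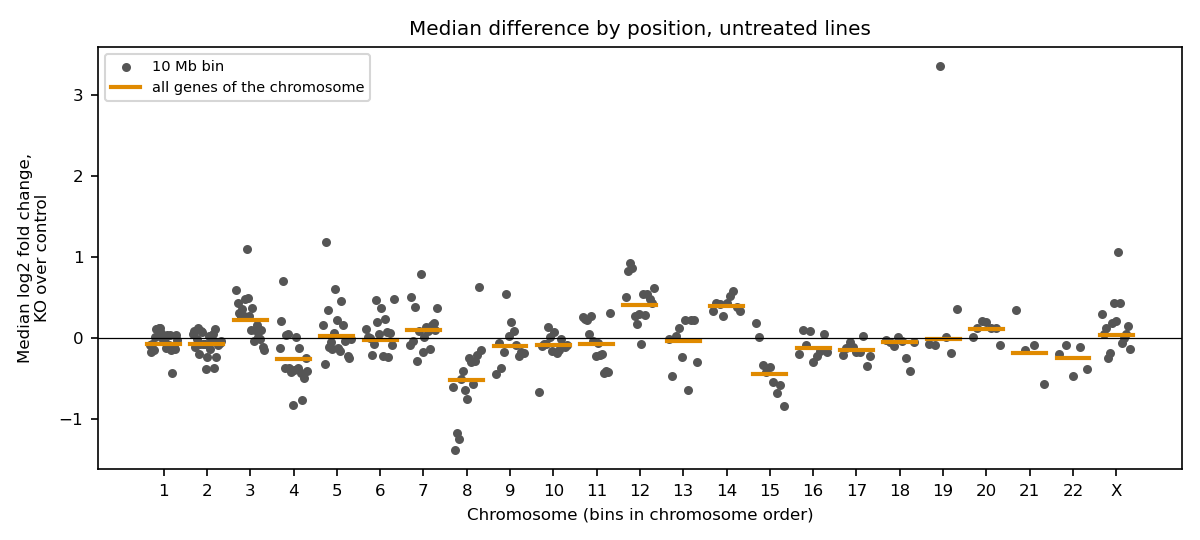
Grey points are the median log2 fold change (KO over CT, vertical axis) of each of 297 bins of 10 Mb with at least 10 genes, in order along each chromosome, and orange lines are the medians over all genes of a chromosome. The lines for chromosomes 12 and 14 lie at 0.41 and 0.40, those for 8 and 15 at -0.52 and -0.44, and 1 bin of chromosome 19 stands alone at 3.36.

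The bin with the largest median of all was chromosome 19, 20 to 30 Mb, at 3.36, with 40 of 48 genes higher and 1 lower. Its neighbours had medians of -0.08 (10 to 20 Mb) and 0.02 (30 to 40 Mb). The bin holds a cluster of KRAB zinc finger genes, which was chosen after its values were seen and is given as a description. Of 31 genes named ZNF with a number in this bin, 30 were tested and 29 were higher in KO, all 29 without overlap between the lines, with a median level of 0.441 normalized CPM in CT and 11.9 in KO. Another 11 of the 30 had at most 3 counts in every CT library. They passed the count filter only with their KO counts, which favours a higher call without overlap. Over all genes tested, 46.5% had no overlap. Only 11 of the 30 reached 1 normalized CPM in CT, and 10 of these were higher. ZNF genes elsewhere on chromosome 19 had 93 higher and 2 lower of 200 tested (median log2 fold change 0.55), and those on other chromosomes 56 higher and 29 lower of 225 (median 0.19).

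Many of these promoters share sequence. In the RefSeq promoter table (GRCh38.p14), 24 of the 30 tested genes had an entry, and the commonest word of 16 bases among them, ATCTTCTGTCACTCAG, was in 13. It was in 14 of all 27305 promoters (0.0513%, either strand) and in 1 of 184 promoters of ZNF genes elsewhere on chromosome 19. The word was picked from the promoters of the cluster itself, so this contrast is a description with no test. Shown here are 30 bases around it in genes that differ widely in the size of their increase, with the shared word in capitals and the strand of the gene, to show that the word is the same in all of them.
ZNF492, chr19:22634182-22634211, plus strand: tggttacATCTTCTGTCACTCAGggcctga
ZNF208, chr19:22011048-22011077, minus strand: tgatcacATCTTCTGTCACTCAGggcctga
ZNF737, chr19:20565891-20565920, minus strand: tgatcatATCTTCTGTCACTCAGggcctga
ZNF91, chr19:23395582-23395611, minus strand: tgatcacATCTTCTGTCACTCAGggcctga
ZNF431, chr19:21141900-21141929, plus strand: tgttcgcATCTTCTGTCACTCAGggcctga
The first base of the word lay 98 to 135 bases before the annotated start in the 13 genes. All 13 genes with the word were higher in KO (median log2 fold change 3.46), and so were 10 of the 11 with a promoter entry but without it (median 4.75), so the word did not separate the genes by size. The promoters of the cluster held a median of 10 CG dinucleotides in 300 bases, against 22 in ZNF genes elsewhere on chromosome 19 and 14 over all promoters.

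ZNF492 had 0 counts in the CT libraries and 3.19, 3.48 and 3.56 normalized CPM in KO, at least 75.5-fold higher. ZNF91, which represses retroelements of the SVA and L1 families, had 6.79, 4.34 and 6.78 in CT and 73.4, 68.9 and 58.3 in KO (log2 fold change 3.46, SE 0.19, adjusted p = 2.6e-07). ZNF737 averaged 0.119 in CT and 12.4 in KO and ZNF208 0.0445 and 8.40. ZNF431 and ZNF714, already expressed in CT at 31.7 and 20.9, rose to 52.9 and 40.7, and ZNF430, the exception, had 17.2 in CT and 22.8 in KO (adjusted p = 0.146, or 0.0423 without CT replicate 11). URI1 and UQCRFS1, abundant genes of the same bin outside the cluster, did not pass the test, at 65.7 and 60.4 and at 32.8 and 35.7. These genes arose by duplication, and reads shared by near-identical copies could be split between them in counting.

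**Figure D4:**
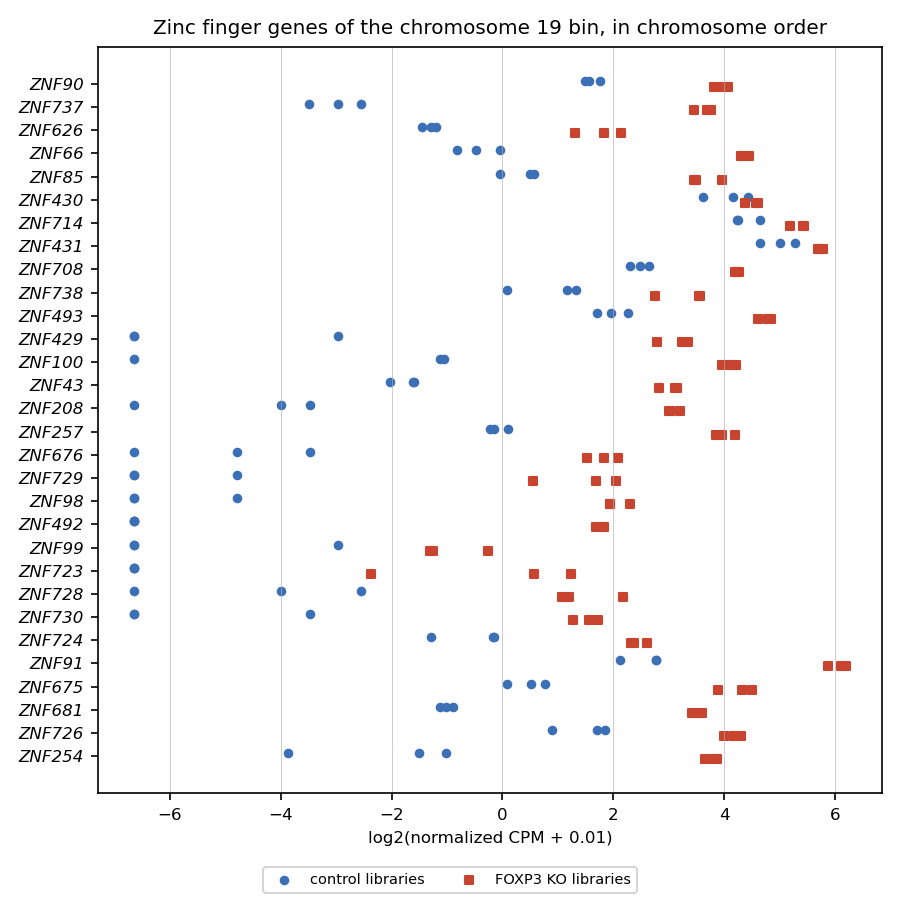
Each point is 1 library on the log2(normalized CPM + 0.01) scale (horizontal axis) for the 30 tested ZNF genes of the 20 to 30 Mb bin of chromosome 19, in chromosome order from top to bottom, with CT as blue circles and KO as red squares. Points at the left edge are libraries with 0 counts. KO lies to the right of CT for 29 genes without overlap, and ZNF430 is the exception. In 11 of the 30 genes every CT library had at most 3 counts, so these were tested only through their KO counts.

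The same genes were read again in the 6 libraries of the clones under IFNγ, which share no library with the untreated comparison but come from the same clones. There, 7046 of 24388 genes tested were called between the lines (28.9%). Of the 3487 genes higher untreated and tested under IFNγ, 3427 had the same direction and 2443 were also called (70.1%). Of the 4485 lower, 4399 had the same direction and 3066 were called (68.4%). Among genes not called without IFNγ, 9.34% of 15455 were called with it. SIGLEC6, PRLR and ZPLD1 kept log2 fold changes of 9.66, 9.75 and -9.47, and the medians of chromosomes 8, 12, 14 and 15 were -0.46, 0.47, 0.43 and -0.37. All 30 zinc finger genes of the cluster were tested and 29 were higher (median log2 fold change 4.66). In the opposite direction, 7 genes were called both times with the sign turned, APOL1, KLF5, SLFN5, SP110, VASH2 and XRN1 from higher to lower and TGFB2 from lower to higher. They are named because they are all such genes, after their values were seen.

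**Figure D5:**
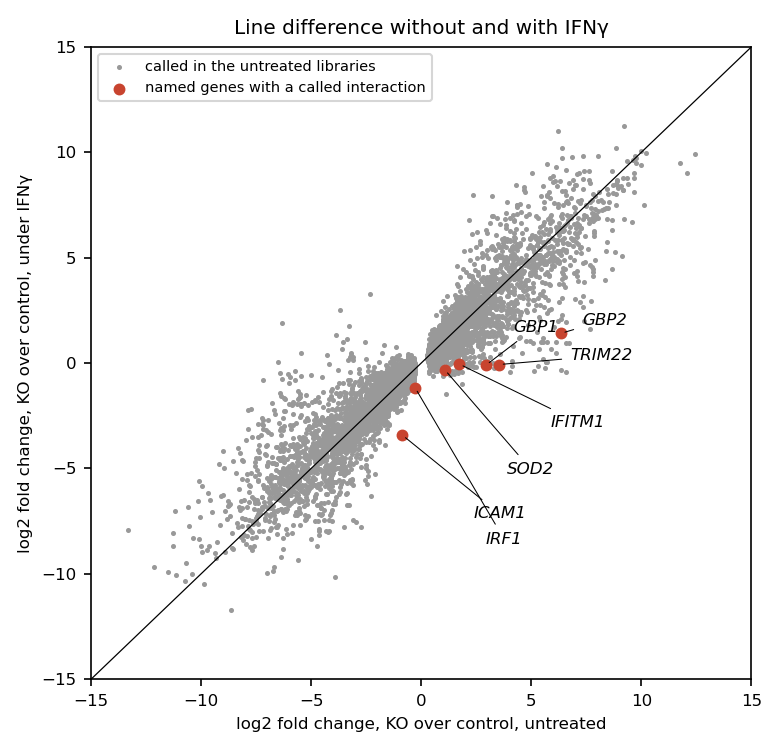
Grey points are the genes called in the untreated libraries, with the log2 fold change of KO over CT without IFNγ on the horizontal axis and with IFNγ on the vertical axis, and the line marks equal values. The 7 named genes whose line difference depended on IFNγ are in red: all 7 lie below the line, GBP2 at 6.35 and 1.41 farthest and IRF1 at -0.28 and -1.17 nearest.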

How the data were processed

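Counts per Ensembl gene were deposited as raw whole numbers: per the study's methods and the submitters' processing notes, Mycoplasma reads were removed with Kraken, reads were aligned to hg38 with STAR 2.7.11a and counted with htseq-count by the authors; a strand setting is not given in the sources used here, so overlapping and antisense genes cannot be told apart. The labels give 3 libraries per group and do not say that they came from separate cultures, so p-values may measure technical spread only. Genes with at least 10 counts over the 6 libraries were tested with edgeR 4.0.16 (quasi-likelihood test, TMM normalization, R 4.3.3) and Benjamini-Hochberg adjustment over all genes tested, called at an adjusted p under 0.05. Normalized CPM used TMM library sizes. Of the 60666 genes listed, 35480 had a count, and genes without a symbol took 0.1% to 0.121% of counts. Gene positions came from GENCODE 44 (25231 of 25320 genes matched by Ensembl ID) and promoters from RefSeq by symbol. Fits were also run on simulated counts with far fewer changed genes than were called here. That run therefore cannot check the number of calls in these data.

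The members, the 31 gene lists and the rules were chosen with earlier results of these data known. Genes were named as follows: those the study centres on; the 12 largest changes in each direction that had no overlap, more than 3 counts in a library of each line and 5 CPM in the higher line; the 8 most abundant in 1 line at or below 3 counts in every library of the other; the 6 most abundant changed by over 1 (log2); up to 4 in each direction per list at 1 CPM or more; up to 4 per bin described. Zinc finger genes and cell type markers were named beside these. Totals of 10476942 to 39270042 counts put 3 counts at 0.0764 to 0.286 CPM; intervals and floors cover counting error only. Replicate numbers are shared between the lines: deviations from the line means, over 15564 genes of at least 1 CPM, correlated at 0.147, 0.337 and 0.209 for equal numbers and at -0.272 to 0.118 for unequal ones. Each equal-number value passed 0.1, but so did KO replicate 13 with CT replicate 11 (0.118), and the labels do not state a pairing. Whether the numbers pair the libraries is therefore not settled. The main fit left them out, and a fit with the number as a block was an alternative. Other alternatives were DESeq2 1.42.0, 2 other normalizations, 2 filters, bias-adjusted deviance, all 12 libraries in 1 fit, 2 thresholds and each library left out. The interaction of line and IFNγ was tested over the 12 libraries. Y-linked genes, XIST and some other genes that the rule names are not reported here.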

Additional observations from a re-analysis of the deposited data

Results flagged for a closer look

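In 7 named genes the difference between the lines depended on IFNγ, by the interaction of line and treatment over the 12 libraries (edgeR, 31 of 27806 genes called and 1727 at an unadjusted p under 0.05). GBP2, higher in KO by 6.35 on the log2 scale without IFNγ and 1.41 with it, had an interaction of -4.98 (adjusted p = 4.5e-08). GBP1 went from 2.94 to -0.10 (interaction -3.08, adjusted p = 2.3e-06), TRIM22 from 3.54 to -0.07 (interaction -3.73, adjusted p = 0.0114) and IFITM1 from 1.73 to -0.05 (interaction -1.81, adjusted p = 0.0153). SOD2 went from 1.07 to -0.32 (interaction -1.42, adjusted p = 0.0403). These 5 genes were higher in KO at baseline, and all but GBP2 lay close to or below 0 under IFNγ. IRF1 and ICAM1 went from -0.28 to -1.17 (interaction -0.93, adjusted p = 0.0171) and from -0.86 to -3.42 (interaction -2.59, adjusted p = 0.0199), wider apart under IFNγ than without it. Dixon's test for a single high or low library was not run on groups of 3, and the effect of leaving out each library is given under the processing alternatives.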

How the results depend on the processing

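The number of genes called stayed within 1.5 times 8135 under every other normalization, filter, tool, block and left-out library: it was 8199 with DESeq2, 8242 with upper-quartile normalization, 9258 with the replicate block and 5834 (without CT replicate 13) to 7736 with a library left out. The balance of directions depended on the normalization. Upper-quartile normalization called 4236 genes higher and 4006 lower, against 3538 and 4597 in the main fit. Under IFNγ the 7046 genes called were 8287 with the replicate block and 7274 with DESeq2. An adjusted p of 0.01 left 5113 (2127 higher, 2986 lower), and a log2 fold change over 1 left 4944 (2142 and 2802), by construction. Over 295 named genes and 4120 values, 4023 kept direction and call, 87 lost the call (79 with a library left out), 6 gained it and 4 turned sign. The replicate block lost no call among these genes, and beyond ICAM1 and the 2 lists given above it changed no other call by over 1.5 times except cholesterol genes (2 higher against 0). List counts that moved by over 1.5 times in other fits were cell cycle genes (9 higher with upper-quartile normalization and 7 with filterByExpr against 4, and 11 lower with all 12 libraries against 18), nuclear respiratory genes (5 lower with upper-quartile normalization against 9), cholesterol genes (9 lower with it against 15, and 2 higher with no filter), glycolysis genes (15 higher and 9 lower with no filter, 2 higher with both normalizations and filterByExpr), neuroendocrine genes (1 higher in 6 fits, 1 lower with filterByExpr) and, by 1 or 2 genes, antigen presentation (1 higher with no filter), CEACAMs and mucins (1 higher with no filter) and HOX genes (1 higher with filterByExpr).

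Upper-quartile normalization shifted the medians of chromosomes 3, 4, 8, 12, 14, 15 and 22 to 0.32, -0.17, -0.43, 0.50, 0.49, -0.35 and -0.16 and that of the chromosome 19 bin to 3.45, and filterByExpr those of 3, 12, 14, 15 and 22 to 0.27, 0.45, 0.44, -0.40 and -0.21. With a library left out the medians were 0.24 to 0.27 (chromosome 3), 0.44 to 0.47 (12), 0.41 to 0.45 (14), -0.41 to -0.38 (15) and 3.24 to 3.48 (chromosome 19 bin). ENO2, not called, turned to 0.03 with upper-quartile normalization and 0.34 to 0.47 without KO replicate 11, KO replicate 13 or CT replicate 12; the range over left-out libraries was -1.27 to 0.47, and without KO replicate 12 it was called lower. The cause of these moves was not tested. Each line is 1 clone with 3 libraries, FOXP3 was at or under the floor of 3 counts, and low genes have wide intervals.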
